A study of Mus musculus with 14 samples.

Results

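Glycolysis and glycogen metabolism were followed through 33 genes of mouse skeletal muscle, which cover the steps from glucose to lactate, the glycerol phosphate shuttle, the control of fructose bisphosphate, the making and breakdown of glycogen, and glucose and lactate transport. The genes come from a fixed list of symbols, and each was read through the probe that carries its symbol, taking the probe with the highest mean raw signal where a gene had several. All 33 had a probe, and 32 were tested among the 14164 genes tested in all. The remaining probe, which the array names Pgm1, was well above background on 5 of 14 arrays and did not pass the filter.

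Expression was measured with 1 Agilent 1-colour microarray per sample in a fast muscle of the lower leg, the extensor digitorum longus (EDL), and in a slow muscle of the calf, the soleus. Ts1Cje mice, which model Down syndrome through an extra copy of the distal part of mouse chromosome 16, were set against disomic littermates on the C57BL/6 background (WT), as 3 EDL and 4 soleus arrays of each genotype. The extra segment holds many genes at once, and Ts1Cje mice also carry a deletion on another chromosome. A difference between genotypes can therefore not be assigned to a single gene or to the segment alone. Age and sex are not given in the sources used here, and neither is whether the EDL and soleus samples came from the same animals, so every p-value below reflects only how these samples vary, which may be technical.

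Glycolysis splits glucose into pyruvate in the cytosol and yields ATP without oxygen, and lactate dehydrogenase then turns pyruvate into lactate and regenerates the NAD+ that the pathway needs. Glycogen is the store of glucose inside the fibre: glycogen phosphorylase, switched on by phosphorylase kinase, releases it, and glycogen synthase builds it up again. Fast-twitch fibres are known for relying on glycolysis and stored glycogen, and slow-twitch fibres for relying on oxidation in mitochondria.

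All 14 arrays came from skeletal muscle by its defining markers, since the 7 muscle genes Acta1, Ckm, Mb, Des, Ttn, Tnnc2 and Myh1 were well above background on every array. Per array, 41.3% to 52.9% of the 55681 probes passed the scanner's test against background, 0 were saturated, and the 75th percentile ranged from 62.4 to 144 intensity units. Arrays of the same group correlated at 0.979 to 0.988 across genes. The 6 EDL arrays shared slide 1 with replicate 1 of the Ts1Cje soleus, and the remaining 7 soleus arrays were on slide 2, so muscle and slide are nearly the same split. Levels below are log2 signals relative to the 75th percentile of the array, and a level of 0 is that percentile. A gene was called when limma's test, adjusted by the Benjamini-Hochberg method over all 14164 genes, gave an adjusted p under 0.05, and "higher", "lower", "rose" and "fell" are used of a difference only where it was called.

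Between the muscles, most of the pathway was higher in the EDL. In WT mice 22 of 32 members were higher in the EDL and 1, Ldhb, was lower, and the same 23 genes were called in the same directions in Ts1Cje mice. Over all genes tested, 29.8% were called in WT, 20.1% as higher and 9.78% as lower, and in Ts1Cje 30% were called, 17.5% as higher and 12.4% as lower. The median EDL minus soleus difference of the members was 1.42 log2 units in WT and 1.53 in Ts1Cje, beside 0.07 and 0.01 for all genes. The called members differed by a median of 3.12-fold in WT and 3.58-fold in Ts1Cje. Across the 32 members the WT and Ts1Cje differences had a Pearson correlation of 0.99, given as a description since genes are not independent replicates. These differences come from separate arrays, but they share the probes and nearly the same split of muscle by slide. In bulk muscle, a higher share of cells or fibres of a type and more RNA per cell cannot be told apart.

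**Figure D1:**
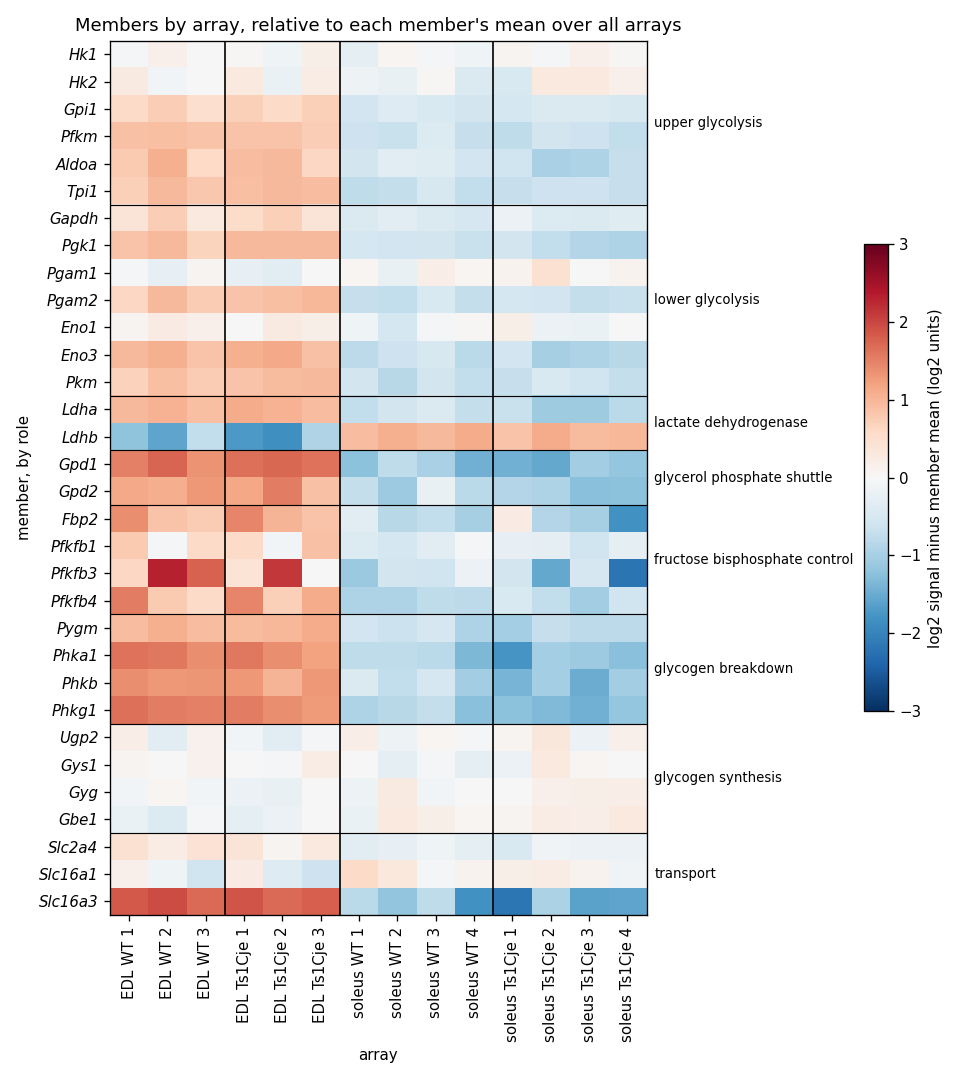
Log2 signal of the 32 tested members on each of the 14 arrays, shown as the difference from that member's own mean over all arrays (colour, in log2 units), with members in rows by role and arrays in columns by group. For the 22 members called higher in the EDL the EDL columns are mostly red and the soleus columns mostly blue (some Pfkfb1, Pfkfb3 and Fbp2 cells are near white), Ldhb is reversed, and glycogen synthesis is close to white throughout.

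In the upper part of glycolysis 4 of 6 members were called, all higher in the EDL in both genotypes. Hk1 and Hk2, the hexokinases that phosphorylate glucose on entry, were not called in either genotype. They stood at 0.13 ± 0.11 and 0.25 ± 0.19 (SE) in WT and -0.03 and 0.04 in Ts1Cje. The other Hk1 probes stood at -0.34 and -0.19 in WT and at -0.49 and -0.02 in Ts1Cje. Gpi1, the isomerase that makes fructose 6-phosphate, was 2.13-fold higher in the EDL in WT and 2.20-fold higher in Ts1Cje. Pfkm, the muscle phosphofructokinase that commits sugar to glycolysis, read 9.73, 9.74 and 9.69 in the WT EDL and 8.22, 8.17, 8.43 and 8.14 in the WT soleus. These 7 WT arrays do not overlap, and the difference of 1.48 ± 0.10 log2 units (SE, 2.79-fold, limma adjusted p = 7.88e-07) was close to the 1.49 ± 0.10 of Ts1Cje. Aldoa, the aldolase that splits the 6-carbon sugar, was 2.41-fold higher in WT and 3.09-fold higher in Ts1Cje, and Tpi1, which interconverts the triose phosphates, 2.85-fold and 3.01-fold.

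In the lower part of the pathway, 5 of 7 members were called in both genotypes, all higher in the EDL. Gapdh, the dehydrogenase that brings in phosphate, had the smallest difference of the 5, at 0.90 ± 0.12 log2 units (SE, 1.86-fold) in each genotype. In Ts1Cje it was not called with quantile normalization (0.22, limma adjusted p = 0.123), and in WT not with the slide as a block (0.67, limma adjusted p = 0.0695). Of its 8 probes, the files place 2 on chromosome 7, the brightest among them, and 6 on chromosome 6, where the Gapdh promoter entry also lies. All 8 were higher in the WT EDL in their mean, by 0.78 to 1.23 log2 units. Pgk1, a kinase that makes ATP, differed by 1.42 ± 0.11 in WT and 1.75 ± 0.11 in Ts1Cje. Pkm, the pyruvate kinase of muscle, differed by 1.45 ± 0.11 and 1.53 ± 0.11 (all SE).

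The remaining steps of the lower pathway have a muscle form and a widely expressed form, and these forms differed. Pgam2, the muscle phosphoglycerate mutase, read 9.37, 9.73 and 9.51 in the WT EDL against 8.07, 8.01, 8.30 and 8.04 in the WT soleus. In Ts1Cje its EDL arrays read 9.62, 9.66 and 9.75 and its soleus arrays 8.23, 8.19, 8.04 and 8.08. Every EDL array lay above every soleus array, and the differences were 1.43 ± 0.11 (SE, 2.69-fold, limma adjusted p = 2.63e-06) and 1.54 ± 0.11 (SE, 2.91-fold). Pgam1, the form found in most tissues, read 2.54 to 2.87 in the WT EDL and 2.57 to 2.99 in the WT soleus, ranges that overlap. It was not called, at -0.09 ± 0.14 in WT and -0.36 ± 0.14 in Ts1Cje (SE, limma adjusted p = 0.671 and 0.0756). In Ts1Cje it was called lower in the EDL with quantile normalization (-0.45, limma adjusted p = 0.0318) and without EDL Ts1Cje replicate 3 (-0.46, limma adjusted p = 0.0475).

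Enolase showed the same split between its genes. Eno3, the muscle enolase, read 10.64, 10.74 and 10.52 in the WT EDL and 8.88, 9.05, 9.19 and 8.85 in the WT soleus, a difference of 1.64 ± 0.13 log2 units (SE, 3.11-fold, limma adjusted p = 2.78e-06). In Ts1Cje the difference was 1.86 ± 0.13 (SE, 3.64-fold). Eno1, the enolase of most tissues, stood at 0.32 ± 0.14 in WT and 0.20 ± 0.14 in Ts1Cje and was not called (limma adjusted p = 0.101 and 0.295). The WT EDL arrays of Eno1, from 6.21 to 6.38, all lay above the WT soleus arrays, from 5.62 to 6.18, and the Ts1Cje arrays overlapped.

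Lactate dehydrogenase went in opposite directions by subunit. Ldha, the subunit that favours the making of lactate, read 10.30, 10.38 and 10.24 in the WT EDL and 8.60, 8.77, 8.89 and 8.62 in the WT soleus. In Ts1Cje the EDL arrays read 10.44, 10.38 and 10.26 and the soleus arrays 8.67, 8.26, 8.26 and 8.51. The EDL was higher by 1.59 ± 0.12 log2 units in WT (SE, 3.01-fold, limma adjusted p = 2.24e-06) and by 1.94 ± 0.12 in Ts1Cje (SE, 3.82-fold). Ldhb, the heart-type subunit that favours the use of lactate, read 6.08, 5.69 and 6.55 in the WT EDL and 8.20, 8.35, 8.26 and 8.40 in the WT soleus. Its Ts1Cje arrays read 5.55, 5.45 and 6.37 in the EDL and 8.13, 8.39, 8.23 and 8.27 in the soleus. Ldhb was lower in the EDL by 4.57-fold in WT (log2 -2.19 ± 0.22 SE, limma adjusted p = 1.85e-05) and by 5.52-fold in Ts1Cje (log2 -2.47 ± 0.22 SE), and no EDL array reached a soleus array.

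**Figure D2:**
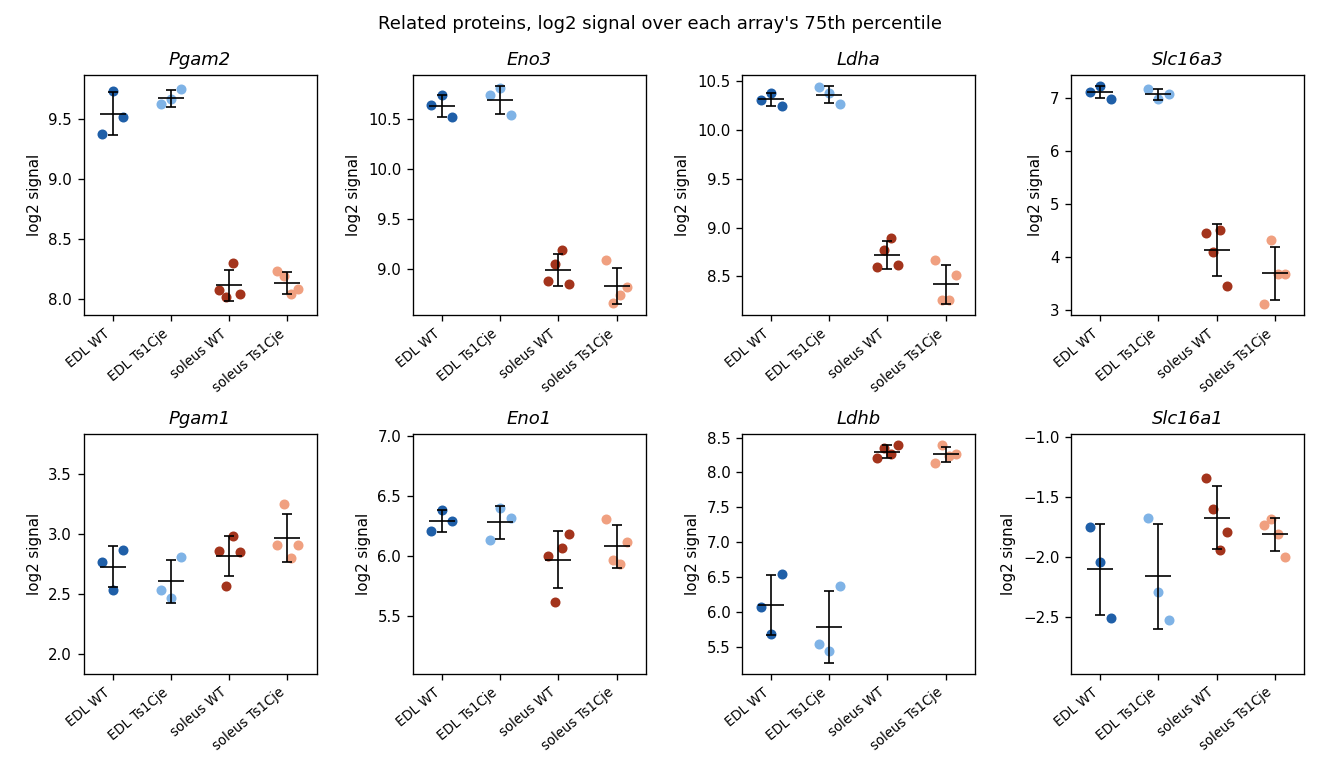
Log2 signal over the array's 75th percentile for related proteins, with 1 point per array in each of the 4 groups and the mean as a wide line with the SD as whiskers; each panel has its own axis. In the upper row Pgam2, Eno3, Ldha and Slc16a3 are separated by muscle, and in the lower row Pgam1, Eno1 and Slc16a1 are not called while Ldhb is higher in the soleus.

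The bases upstream of the start of transcription are shown for the related genes that behaved differently between the muscles (Pgam2 and Pgam1, Ldha and Ldhb) and for Eno3, Pygm and Slc16a3, which were higher in the EDL. Each sequence holds the 250 bases before the start, 5′ to 3′ on the gene's strand, from the RefSeq promoter table on build GRCm38.p6, and capitals mark matches to the motifs named after them. The Pgam2 bases are chr11:5803797-5804046 on the minus strand, those of Pgam1 chr19:41911621-41911870 on the plus strand, and those of Eno3 chr11:70656926-70657175 on the plus strand. The Ldha bases are chr7:46845554-46845803 on the plus strand, from the first of its 2 entries, and those of Ldhb are chr6:142507958-142508207 on the minus strand. The Pygm bases are chr19:6384158-6384407 and those of Slc16a3 chr11:120948817-120949066, both on the plus strand.
Pgam2: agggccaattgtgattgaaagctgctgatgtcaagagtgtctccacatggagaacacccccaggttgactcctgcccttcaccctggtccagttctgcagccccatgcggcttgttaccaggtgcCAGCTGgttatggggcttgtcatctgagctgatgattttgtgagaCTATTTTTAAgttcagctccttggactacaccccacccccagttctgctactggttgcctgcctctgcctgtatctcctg
Pgam1: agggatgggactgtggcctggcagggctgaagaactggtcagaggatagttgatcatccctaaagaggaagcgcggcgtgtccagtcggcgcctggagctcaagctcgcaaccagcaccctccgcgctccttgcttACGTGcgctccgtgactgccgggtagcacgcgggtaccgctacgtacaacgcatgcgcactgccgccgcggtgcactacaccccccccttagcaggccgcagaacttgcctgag
Eno3: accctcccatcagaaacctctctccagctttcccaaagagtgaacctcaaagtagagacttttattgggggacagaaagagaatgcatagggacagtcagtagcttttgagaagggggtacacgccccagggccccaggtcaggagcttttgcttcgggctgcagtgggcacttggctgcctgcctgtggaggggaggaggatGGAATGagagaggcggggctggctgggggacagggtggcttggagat
Ldha: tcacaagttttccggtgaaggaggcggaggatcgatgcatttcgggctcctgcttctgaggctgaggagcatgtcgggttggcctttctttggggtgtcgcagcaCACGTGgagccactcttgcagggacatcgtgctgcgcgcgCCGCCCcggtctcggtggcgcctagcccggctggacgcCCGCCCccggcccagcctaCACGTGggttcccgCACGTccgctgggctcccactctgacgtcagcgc
Ldhb: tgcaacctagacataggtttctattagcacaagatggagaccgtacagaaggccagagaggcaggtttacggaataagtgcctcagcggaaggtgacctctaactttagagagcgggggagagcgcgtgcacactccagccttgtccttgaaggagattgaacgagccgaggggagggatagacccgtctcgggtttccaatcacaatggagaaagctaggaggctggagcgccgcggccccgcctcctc
Pygm: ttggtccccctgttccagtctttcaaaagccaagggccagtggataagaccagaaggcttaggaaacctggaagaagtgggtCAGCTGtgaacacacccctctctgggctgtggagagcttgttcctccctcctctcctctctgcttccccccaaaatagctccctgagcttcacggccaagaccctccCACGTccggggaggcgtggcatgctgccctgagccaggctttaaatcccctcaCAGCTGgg
Slc16a3: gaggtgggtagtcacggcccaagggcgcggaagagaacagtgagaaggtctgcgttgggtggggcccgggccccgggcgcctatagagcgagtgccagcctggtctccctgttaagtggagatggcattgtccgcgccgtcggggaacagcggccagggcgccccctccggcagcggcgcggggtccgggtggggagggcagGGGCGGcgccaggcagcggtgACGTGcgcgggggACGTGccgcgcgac

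The 7 motifs searched, on both strands, were CAGCTG (the E-box of the myogenic factors), CACGTG (the E-box of USF and MYC type factors), ACGTG (the core of the hypoxia response element), CATTCC (the MCAT element), GGGCGG (the GC box), TATAAA (the TATA box) and the MEF2 element. ACGTG lies inside CACGTG and is counted in both. In the Pgam2 window CAGCTG starts at -125 and a MEF2 match at -80, counted from the transcription start, and in the Pgam1 window only ACGTG at -114 was found. The Ldha window holds CACGTG at -145 and -48, a further ACGTG at -34 and GGGCGG at -105 and -67, while in the second Ldha entry, which is not shown, none of the 7 motifs was found. In the Ldhb window none of the 7 motifs was found, which says only that these letters are not in this window. Eno3 has CATTCC at -47, Pygm has CAGCTG at -168 and -8 and ACGTG at -61, and Slc16a3 has ACGTG at -27 and -14 and GGGCGG at -48. The windows of Slc16a1 and Eno1, which were not called, are not shown and hold the same motifs as their related genes. Slc16a1 has 2 matches to ACGTG, 1 to CACGTG and 1 to GGGCGG. Entries 2 and 3 of Eno1 hold CATTCC and GGGCGG, and in entry 1 none of the 7 motifs was found.

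Promoter entries were found for 30 of the 32 tested members, 46 entries in all. ACGTG was in 13 of the 32 entries (40.6%) of members higher in the EDL, in 4 of 13 entries (30.8%) of members not called, and in 16.6% of all 32851 entries. CAGCTG was in 21.9%, 15.4% and 13% of the same sets, CACGTG in 12.5%, 7.69% and 6.02%, and GGGCGG in 46.9%, 61.5% and 32.7%. CATTCC was in 6.25%, 15.4% and 12.6%, TATAAA in 3.12%, 0% and 12.4%, and the MEF2 element in 6.25%, 0% and 2.92%. These shares are descriptions, since entries of 1 gene can overlap and a match is not a binding site.

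Glycerol phosphate dehydrogenases, which carry the reducing power of glycolytic NADH into mitochondria, were both higher in the EDL. Gpd1, the cytosolic enzyme, read 7.80, 8.04 and 7.64 in the WT EDL and 5.07, 5.53, 5.32 and 4.85 in the WT soleus. The 2 sets of arrays are far apart, and the difference was 2.63 ± 0.17 log2 units in WT (SE, 6.20-fold, limma adjusted p = 7.88e-07) and 2.97 ± 0.17 in Ts1Cje (SE, 7.82-fold). Gpd2, the mitochondrial enzyme, was 3.71-fold higher in the EDL in WT and 4.79-fold higher in Ts1Cje.

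The 4 members that set the level of fructose bisphosphates were all called as higher in the EDL. Fbp2, the muscle fructose bisphosphatase that runs the committed step backwards, differed by 1.72 ± 0.37 log2 units in WT and 1.97 ± 0.37 in Ts1Cje (SE). Its soleus Ts1Cje arrays read 0.32, -0.82, -0.93 and -1.76, so that the array of slide 1 was the highest of them. With the slide as a block the Fbp2 difference was 0.23 in WT and 0.86 in Ts1Cje and was not called (limma adjusted p = 0.786 and 0.158). Pfkfb3, a kinase that makes the activator fructose 2,6-bisphosphate, read 2.93, 4.62 and 4.09 in the WT EDL, 2.74, 4.45 and 2.32 in the Ts1Cje EDL, 1.20, 1.78, 1.72 and 2.15 in the WT soleus and 1.76, 0.78, 1.81 and 0.13 in the Ts1Cje soleus. Its EDL arrays all lay above its soleus arrays, but they spread by up to 2.13 log2 units within a group. The Pfkfb3 difference was 2.17 ± 0.55 in WT and 2.05 ± 0.55 in Ts1Cje (SE, limma adjusted p = 0.00989 and 0.014). It was not called without EDL WT replicate 2 (1.80, limma adjusted p = 0.0515) or without EDL Ts1Cje replicate 2 (1.41, limma adjusted p = 0.0672), nor with the slide as a block (1.32 in WT and 1.41 in Ts1Cje).

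Pfkfb4, Pfkfb1 and Pfkfb2 belong to the same family. Pfkfb2, which is not on the list, was not called, at 0.35 ± 0.27 in WT and -0.35 ± 0.27 in Ts1Cje (SE, limma adjusted p = 0.351 and 0.357). Pfkfb4 was 3.51-fold higher in the EDL in each genotype (1.81 ± 0.22 log2 units, SE). Pfkfb1 was the called member nearest the threshold, at 0.75 ± 0.23 in WT and 0.81 ± 0.23 in Ts1Cje (SE, limma adjusted p = 0.0278 and 0.0206), and its WT arrays overlapped between muscles. With the replicate number as a block its WT difference was 0.85 and no longer called (limma adjusted p = 0.0509). The call was also lost in WT with quantile normalization (0.56) and without the filter on dim probes (0.75, limma adjusted p = 0.0651), and in both genotypes with normexp (0.61 and 0.63) and with the slide as a block (0.63 and 0.71). In WT it was also not called without EDL replicate 1 or 3 or without soleus replicate 1, 2 or 3, with values from 0.58 to 0.76. In Ts1Cje it was not called without EDL replicate 1 or 3 or soleus replicate 3, with values from 0.60 to 0.75.

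The listed members of glycogen metabolism divided by direction of the pathway, though most of those of breakdown are subunits of a single enzyme, phosphorylase kinase. All 4 members of glycogen breakdown were higher in the EDL in both genotypes, with a median of 2.24 log2 units in WT and 2.56 in Ts1Cje. Of the 4 members of glycogen synthesis none was called in either, with medians of -0.03 and -0.25. Pygm, the muscle glycogen phosphorylase that frees glucose 1-phosphate, read 9.19, 9.35 and 9.20 in the WT EDL and 7.69, 7.62, 7.77 and 7.35 in the WT soleus, a difference of 1.64 ± 0.12 (SE, 3.12-fold, limma adjusted p = 1.49e-06). Its Ts1Cje arrays read 9.22, 9.28 and 9.38 against 7.26, 7.59, 7.48 and 7.48, a difference of 1.84 ± 0.12 (SE, 3.58-fold). No EDL array of Pygm came within the soleus range.

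Phosphorylase kinase switches Pygm on, and the 3 subunits on the list were all higher in the EDL. Of the other measured subunits, Phka2 stood at -0.02 in WT and 0.00 in Ts1Cje and was not called. Phkg2, the catalytic subunit known from liver and testis, stood at -0.02 in WT, not called, and was lower in the EDL in Ts1Cje (-0.29 ± 0.10 SE, limma adjusted p = 0.0378). Phkg1, the catalytic subunit of muscle, had the smallest p of any member in this comparison. Its arrays read 6.05, 5.93 and 5.90 in the WT EDL, 5.92, 5.80 and 5.67 in the Ts1Cje EDL, 3.46, 3.57, 3.67 and 3.15 in the WT soleus and 3.16, 3.06, 2.95 and 3.23 in the Ts1Cje soleus. Phkg1 was higher in the EDL by 2.50 ± 0.13 log2 units in WT (SE, 5.64-fold, limma adjusted p = 1.37e-07) and by 2.70 ± 0.13 in Ts1Cje (SE, 6.48-fold, limma adjusted p = 4.49e-08). Phka1, the regulatory alpha subunit of muscle, was 5.46-fold higher in WT and 6.39-fold higher in Ts1Cje. Phkb, the regulatory beta subunit, was 4.07-fold higher in WT and 5.46-fold higher in Ts1Cje.

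On the building side, Gys1, the muscle glycogen synthase, read 6.19, 6.12 and 6.22 in the WT EDL and 6.11, 5.82, 6.07 and 5.83 in the WT soleus. The groups do not overlap, but the values nearest each other differ little, and the difference was 0.22 ± 0.13 in WT and 0.00 ± 0.13 in Ts1Cje (SE, limma adjusted p = 0.218 and 0.987). Gyg, the glycogenin that primes the granule, stood at -0.04 ± 0.11 and -0.26 ± 0.11, and Ugp2, which makes UDP-glucose, at -0.03 ± 0.16 and -0.24 ± 0.16 (SE, WT and Ts1Cje). Gbe1, the branching enzyme, stood at -0.30 ± 0.13 and -0.36 ± 0.13 (SE, limma adjusted p = 0.108 and 0.0582). These are values of its brightest probe, and its second probe stood at -0.17 in WT and 0.17 in Ts1Cje. Gbe1 was called lower in the EDL with quantile normalization (-0.51 in WT and -0.49 in Ts1Cje), with normexp in Ts1Cje (-0.52), without soleus WT replicate 1 (-0.39) and without EDL Ts1Cje replicate 3 (-0.44). Gyg was called lower in Ts1Cje with quantile normalization (-0.43) and with normexp (-0.46). Of the 9 members called in neither genotype, these 4 among them, the 95% intervals of the difference ran from -0.90 to 0.67 log2 units in WT and from -0.83 to 0.51 in Ts1Cje.

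Transport across the surface membrane held the largest difference of the list. Slc16a3, the monocarboxylate transporter MCT4 that exports lactate, read 7.12, 7.23 and 6.98 in the WT EDL and 4.46, 4.09, 4.51 and 3.46 in the WT soleus. In Ts1Cje it read 7.17, 6.98 and 7.07 in the EDL and 3.12, 4.33, 3.68 and 3.69 in the soleus. The EDL arrays of Slc16a3 lie within 0.25 log2 units of each other in WT, far above the soleus arrays. The difference was 2.98 ± 0.27 in WT (SE, 7.90-fold, limma adjusted p = 9.15e-06) and 3.37 ± 0.27 in Ts1Cje (SE, 10.3-fold, limma adjusted p = 2.58e-06). Slc16a1, the transporter MCT1 known for lactate uptake in oxidative fibres, was dim and not called, at -0.43 ± 0.22 and -0.36 ± 0.22 (SE). Slc2a4, the insulin-responsive glucose transporter GLUT4, was 1.55-fold higher in the EDL in WT and 1.41-fold higher in Ts1Cje, and was not called with normexp background correction (0.50 and 0.31, limma adjusted p = 0.066 and 0.232) or, in Ts1Cje, with quantile normalization (0.29, limma adjusted p = 0.0804).

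**Figure D3:**
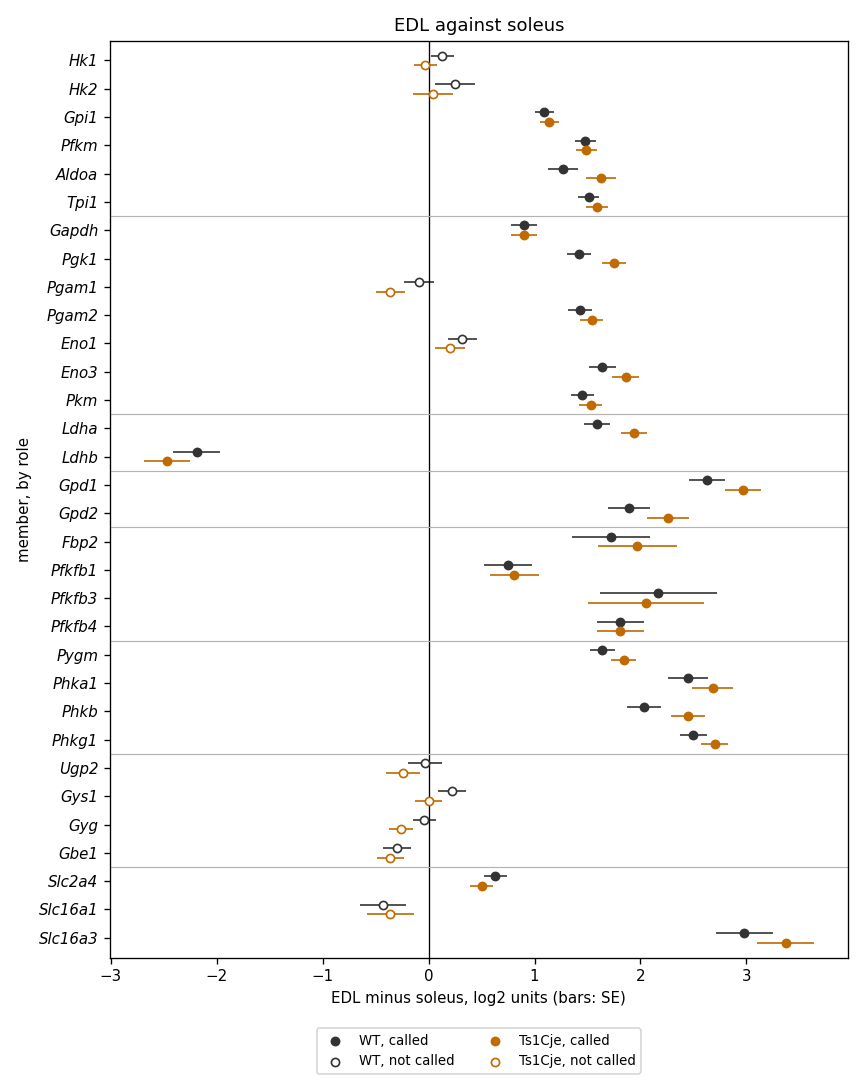
EDL minus soleus difference of each tested member in log2 units, with the SE as a bar, in WT (dark) and in Ts1Cje (orange); filled points were called and open points were not, and grey lines separate the roles. Differences run from -2.47 for Ldhb to 3.37 for Slc16a3, and the 4 glycogen synthesis members lie between -0.36 and 0.22.

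Because slide and muscle nearly coincide, the muscle differences were also fitted with the slide as a block, a fit in which the slide effect rests on soleus Ts1Cje replicate 1. With that block 19 members were called higher and 1 lower in WT, and likewise 19 and 1 in Ts1Cje. Of all 14164 genes, 1372 were called in WT and 2081 in Ts1Cje in the same fit. The medians of the members were 1.14 and 1.42 log2 units. Within slide 1, 3 EDL Ts1Cje arrays meet 1 soleus Ts1Cje array that is assumed to vary like the others. The median of the members was 1.42 log2 units in that fit, beside 0.01 for all genes. There Phkg1 differed by 2.64, Slc16a3 by 3.96, Pygm by 2.03, Ldha by 1.69 and Ldhb by -2.34, all called, while Gapdh at 0.73, Pfkfb4 at 1.56 and Slc2a4 at 0.72 were not called (limma adjusted p = 0.107, 0.0748 and 0.0763), nor were Fbp2, Pfkfb1 and Pfkfb3. Hk2 stood at 0.96 in WT with the slide block and was called there (limma adjusted p = 0.0441).

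Genes that mark fibre types moved with the muscle comparison. Over the fast fibre list of 12 genes, the summed signal, in multiples of the array's 75th percentile, was 17500 to 24200 in the WT EDL, 18000 to 22500 in the Ts1Cje EDL, 9360 to 10800 in the WT soleus and 7770 to 10300 in the Ts1Cje soleus. Over the slow fibre list of 10 genes it was 51.8 to 481 and 62.8 to 348 in the EDL and 6380 to 7890 and 6950 to 9790 in the soleus, in the same order of genotypes. Of these, 11 of 12 fast and 10 of 10 slow genes were called in each genotype. The medians were 1.60 and 1.80 log2 units for the fast list and -5.17 and -6.00 for the slow list. Myh2, on the fast list, was instead lower in the EDL, at -2.28 in WT and -2.08 in Ts1Cje. Myh4 stood at 2.21 and 6.36 and Myh7 at -6.25 and -6.79, in the same order. With the slide as a block, Myh4, Myh7 and Myh2 were not called in WT, and Myh4 also not with quantile normalization. In Ts1Cje the calls of Myh7 and Myh2 were lost within slide 1, which holds 1 soleus array. Over 16 settings the Ts1Cje differences ran from -7.76 to -6.13 for Myh7 and from -2.61 to -1.70 for Myh2. The part of fibre type in the differences of the members was not tested. Adipocyte markers summed to 6.02 to 50.1 in the EDL and 19.3 to 98.6 in the soleus, with 2 of 6 measured genes called in WT and 6 of 6 in Ts1Cje, and their part was not tested either. Macrophage markers summed to 15 to 17.6 in the WT EDL against 21.5 to 24.8 in the WT soleus, and to 19.5 to 21.4 against 23.3 to 32.9 in Ts1Cje, with 3 and 2 of 7 genes called and medians of -0.55 and -0.57, and their part was not tested.

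Other genes of the pathway followed in part. Of 77 listed genes that are no members, 65 were measured, and 24 were higher and 5 lower in the EDL in WT, and 25 and 6 in Ts1Cje. Over all genes the shares were 20.1% higher and 9.78% lower in WT and 17.5% and 12.4% in Ts1Cje. Several of those with the smallest p were shared by both genotypes. Prkab2, a beta subunit of the energy sensor AMPK, was 7.31-fold higher in WT and 8.45-fold higher in Ts1Cje, and Prkag3, its muscle gamma subunit, 5.60-fold and 9.05-fold. Slc37a4, a glucose 6-phosphate transporter of the endoplasmic reticulum, was 5.0-fold and 6.72-fold higher. Gaa, the lysosomal enzyme that degrades glycogen, was 2.61-fold and 2.57-fold higher, and Ppp1r3a, which targets a phosphatase to glycogen in muscle, 2.58-fold and 2.32-fold. By list, of 11 measured genes that control glycolysis 6 were higher and 1 lower in WT, and 5 were higher and 1 lower in Ts1Cje. Of 14 measured other isozymes of the same steps, 1 was higher and 0 lower in WT, and 2 were higher and 3 lower in Ts1Cje. The RefSeq gene Pgm1, the muscle phosphoglucomutase that joins glycogen to glycolysis, is on the array under the symbol Pgm2 and was 3.81-fold higher in the EDL in WT and 4.22-fold higher in Ts1Cje (limma adjusted p = 1.36e-07 and 4.49e-08).

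The genotype comparison in the EDL asked whether the Ts1Cje genotype goes with a change in these genes in a fast muscle. None of the 32 members was called by limma and 0 had an unadjusted p under 0.05, beside 0.00706% called and 2.87% at an unadjusted p under 0.05 over all genes. The members had a median Ts1Cje minus WT difference of 0.02 log2 units, beside 0.00 for all genes, with 17 members above 0 and 15 below. The 95% intervals of 31 members lay within 1 log2 unit of 0, between -0.83 and 0.96, and that of Pfkfb3 ran from -1.98 to 0.56. The 8 members of smallest p were Pkm (0.14), Pgam2 (0.14), Pgk1 (0.13), Tpi1 (0.10), Slc2a4 (-0.12), Phkg1 (-0.16), Ldhb (-0.32) and Pfkfb3 (-0.71), each with a limma adjusted p of 1. With 1 array left out, Ldhb ranged from -0.61 (without Ts1Cje replicate 3) to -0.10 (without WT replicate 3), and Pfkfb3 from -1.35 (without Ts1Cje replicate 2) to -0.29 (without Ts1Cje replicate 3). The other 6 kept their sign, between -0.23 and -0.03 or between 0.04 and 0.24. With the replicate number as a block, Ldhb stood at -0.32 ± 0.11 (SE) and was not called. In 1 member, Phkb, the groups did not overlap, with 3.21, 3.12 and 3.13 in WT and 3.12, 2.82 and 3.12 in Ts1Cje, and the nearest values of the groups are equal to 2 decimals. Over all genes, 2.77% had every Ts1Cje EDL array below every WT array and 2.83% had every one above.

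In the soleus the same comparison also gave no called member. At an unadjusted p under 0.05 there were 4 of 32 members, 12.5% of them, beside 0.247% called and 13.6% at an unadjusted p under 0.05 over all genes. The median difference was -0.03 log2 units, beside 0.07 for all genes, with 15 members above 0 and 17 below, while 37.3% of all genes lay below 0. With quantile normalization 9 members lay above 0 and 23 below, and with the mean of the kept probes 12 and 20. The 95% intervals of 31 members lay within 1 log2 unit of 0, between -0.97 and 0.64, and that of Pfkfb3 ran from -1.69 to 0.51.

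**Figure D4:**
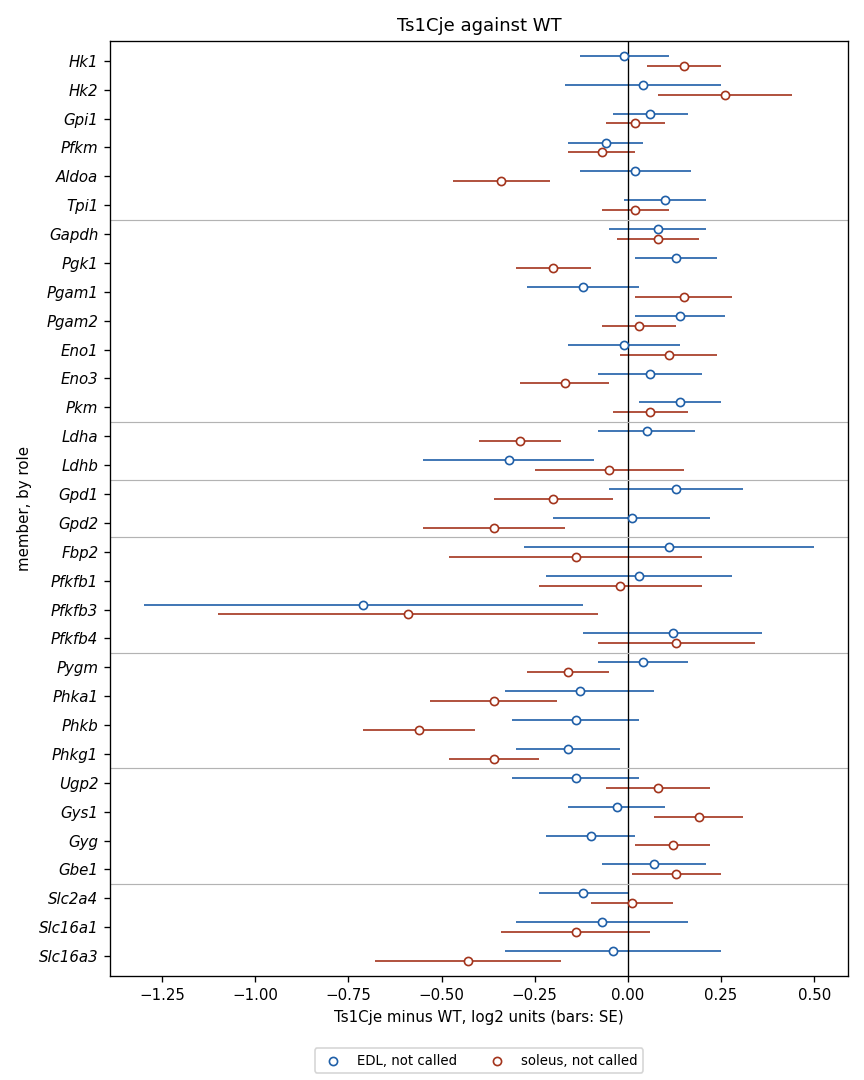
Ts1Cje minus WT difference of each tested member in log2 units, with the SE as a bar, in the EDL (blue) and in the soleus (red); all points are open because none was called. In the soleus the values of Pfkfb3 (-0.59), Phkb (-0.56), Slc16a3 (-0.43), Phka1, Phkg1 and Gpd2 (-0.36 each) and Aldoa (-0.34) lie left of 0, and in the EDL values run from -0.71 to 0.14.

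By role, no member of glycogen metabolism was called in the soleus. Read through the brightest probe of each gene, the 4 members of glycogen breakdown lay between -0.56 and -0.16 log2 units, with a median of -0.36, and the 4 of glycogen synthesis between 0.08 and 0.19, with a median of 0.12. The ranges overlap when other probes are read, since the second probe of Gbe1 stood at -0.18 and that of Gys1 at -0.04. Phkb had the smallest p. Its soleus arrays read 1.37, 1.08, 1.31 and 0.76 in WT and 0.42, 0.78, 0.31 and 0.77 in Ts1Cje, so that WT replicate 4 lies among the Ts1Cje arrays. The difference was -0.56 ± 0.15 (SE, 95% interval -0.88 to -0.23, limma adjusted p = 0.221). Phkg1 read 3.46, 3.57, 3.67 and 3.15 in WT and 3.16, 3.06, 2.95 and 3.23 in Ts1Cje, again with WT replicate 4 among the Ts1Cje arrays. Its difference was -0.36 ± 0.12 (SE, limma adjusted p = 0.276).

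Aldoa was the 1 member whose soleus arrays did not overlap, with 10.83, 11.06, 11 and 10.81 in WT and 10.78, 10.41, 10.46 and 10.68 in Ts1Cje. Over all genes, 2.28% had every Ts1Cje soleus array below every WT array and 6.12% had every one above, and of the members 1 lay wholly below and 0 wholly above. The Aldoa difference was -0.34 ± 0.13 log2 units (SE, limma adjusted p = 0.313). Ldha stood at -0.29 ± 0.11 (SE, limma adjusted p = 0.313), and its WT and Ts1Cje arrays overlapped through Ts1Cje replicate 1. Next by p were Phka1 at -0.36 ± 0.17, Pgk1 at -0.20 ± 0.10, Gpd2 at -0.36 ± 0.19 and Slc16a3 at -0.43 ± 0.25 (SE, limma adjusted p from 0.383 to 0.454). With 1 array left out, Phka1 ranged from -0.50 (without WT replicate 4) to -0.20 (without Ts1Cje replicate 1), Gpd2 from -0.49 (without WT replicate 2) to -0.19 (without WT replicate 3), and Slc16a3 from -0.65 (without WT replicate 4) to -0.23 (without Ts1Cje replicate 1). Phkb ranged from -0.68 to -0.47, Phkg1 from -0.47 to -0.30, Aldoa from -0.41 to -0.29, Ldha from -0.37 to -0.24 and Pgk1 from -0.27 to -0.15. Within slide 2, Phkb stood at -0.51, Aldoa at -0.41, Phkg1 at -0.39 and Ldha at -0.37, and none was called (limma adjusted p from 0.27 to 0.302). Slc16a3 stood at -0.23 there.

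The probes of a gene differed in the soleus in some cases. The Ldha probes stood at -0.29, -0.50 and -0.60 log2 units from the brightest to the dimmest, and those of Phkb at -0.56 and -0.80. The Tpi1 probes stood at 0.02 and -0.31, and the 8 Gapdh probes ranged from -0.36 to 0.13. The sign differed between the probes of Gbe1, at 0.13 and -0.18, of Gys1, at 0.19 and -0.04, and of Hk1, at 0.15, 0.22 and -0.32. The 2 probes of Slc16a3 were close, at -0.43 and -0.38, as were those of Gyg, at 0.12 and 0.10.

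Fibre-type genes moved with the soleus groups. Myh4, the fast myosin heavy chain IIb, read 9.67, 9.26, 9.83 and 8.79 in WT and 5.69, 7.07, 4.42 and 3.88 in Ts1Cje, and fell 17.4-fold (log2 -4.12 ± 0.53 SE, limma adjusted p = 0.00647). Pvalb, the calcium buffer of fast fibres, fell 3.63-fold (limma adjusted p = 0.0032), and Actn3, the actin crosslinker of fast fibres, fell 3.85-fold (limma adjusted p = 0.0132). The Actn3 call was lost without WT replicate 1, without Ts1Cje replicate 2 and in 4 other of 17 settings, and within slide 2 none of these 3 genes was called (limma adjusted p from 0.0789 to 0.154). The Myh4 call was also lost with soleus arrays alone. Over the 17 settings the differences ran from -4.72 to -3.66 for Myh4, from -2.07 to -1.72 for Pvalb and from -2.24 to -1.77 for Actn3. Of the 12 genes of the fast fibre list 3 were called in the soleus, with a median of -0.15, and of the 10 slow fibre genes 0 were called, with a median of 0.20. WT replicate 4, which lay among the Ts1Cje arrays for Phkb and Phkg1, was also the lowest WT array for Myh4, Pvalb and Actn3. Its share of probes above background (44.1%) and its 75th percentile (83.7) were the lowest of the WT soleus arrays. Among the Ts1Cje soleus arrays, replicate 3 was the lowest for Phkb (0.31) and Phkg1 (2.95) but the highest for Pvalb (6.93) and Actn3 (4.56). Its Myh4, at 4.42, lay between those of the others. The part of fibre type in the values of the members was not tested. Myh7, Myh2 and Myh1, the slow, IIa and IIx myosin heavy chains, had soleus means of 10.30, 10.73 and 9.03 in WT and 10.49, 10.66 and 8.92 in Ts1Cje.

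**Figure D5:**
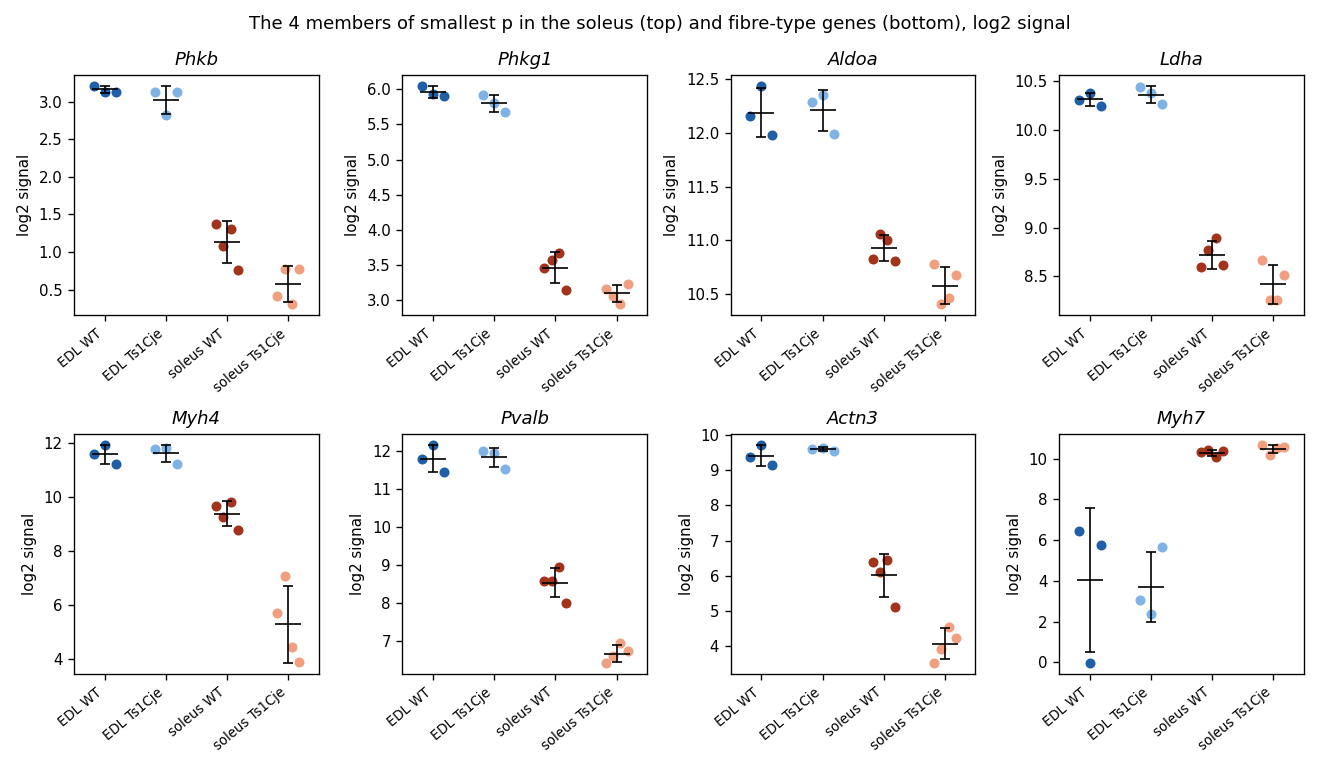
Log2 signal over the array's 75th percentile, 1 point per array with the mean and SD, for the 4 members of smallest p in the soleus (Phkb, Phkg1, Aldoa and Ldha, upper row) and for Myh4, Pvalb, Actn3 and Myh7 (lower row); each panel has its own axis. In the soleus the Ts1Cje minus WT differences are -0.56 to -0.29 log2 units in the upper row and -4.12 for Myh4.

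Of the 65 measured pathway genes that are no members, 0 were called by limma in either genotype comparison, with medians of 0.01 in the EDL and 0.06 in the soleus. Red blood cell markers summed to 92.1 to 108 in the WT soleus and 133 to 159 in the Ts1Cje soleus, and macrophage markers to 21.5 to 24.8 and 23.3 to 32.9, with 0 genes of either list called, and their part in the members' values was not tested.

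The last comparison set the genotype difference of the EDL against that of the soleus. None of the members was called by limma and 1 had an unadjusted p under 0.05, beside 0% called and 3.19% at an unadjusted p under 0.05 over all genes. The median of the members was 0.06 log2 units, beside -0.07 for all genes. The 8 members of smallest p were Pgk1 (0.33 ± 0.15), Ldha (0.35 ± 0.17), Aldoa (0.36 ± 0.20), Phkb (0.42 ± 0.23), Gpd1 (0.34 ± 0.24), Gpd2 (0.37 ± 0.28), Gyg (-0.22 ± 0.16) and Pgam1 (-0.27 ± 0.20), each with its SE and a limma adjusted p of 0.987. Pgk1 read 8.11, 8.22 and 7.92 in the WT EDL, 8.22, 8.23 and 8.21 in the Ts1Cje EDL, 6.72, 6.67, 6.70 and 6.58 in the WT soleus and 6.69, 6.51, 6.36 and 6.33 in the Ts1Cje soleus. Its genotype differences were 0.13 ± 0.11 in the EDL and -0.20 ± 0.10 in the soleus (SE), and neither was called. Gbe1 is the 1 member whose probe lies on chromosome 16, at 70569840 to 70569899 (mm9), outside the extra segment, and it stood at 0.07 ± 0.14 in the EDL and 0.13 ± 0.12 in the soleus (SE).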

How the data were processed

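RNA from 14 muscle samples (25 ng each, per the labels' protocols) was hybridised to 1-colour Agilent arrays. The deposited scanner files hold 62976 spots each, 3671 of them controls, with positions on mm9; per the file headers they came from Feature Extraction 11.5.1.1, while the submitters' processing notes name version 9.1. Their processed signal is an intensity that the authors' scanner software had background-corrected, per the file headers, and their other columns flag spots above background or saturated. The authors' deposited table of log2 normalized values served as an alternative.

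The processed signal was averaged over the spots of a probe, leaving out spots flagged as outliers where others remained. The log2 of this mean was then taken, and the log2 of each array's 75th percentile over the probes was subtracted. Of 55681 probes, 33822 had a symbol, 31813 were named through RefSeq and 2152 had their symbol updated. The filter required a probe to pass the scanner's background test in all arrays of some group, and left 25183 probes, 18509 with a symbol. The brightest probe stood for each gene (14164 genes). A linear model on the 4 groups was fitted with limma 3.58.1 (R 4.3.3, 10 residual and 2.8 prior degrees of freedom), with Benjamini-Hochberg adjustment over all genes. It was also run on simulated data with independent noise. Those data held no slide or replicate effect, so the run cannot tell how the model behaves under such effects. The number of arrays limits the precision.

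Same-numbered replicates deviated together for WT and Ts1Cje EDL (correlations 0.12 to 0.40) and for WT EDL and soleus (0.33 to 0.50), which counts as paired by the rule that every pair exceeds 0.1. They did not for soleus WT and Ts1Cje (-0.29 to 0.01) or for Ts1Cje EDL and soleus (-0.16 to 0.12). The labels do not say what the numbers share. Unless a block is named, the p-values given with the results come from the fit without this pairing. With the replicate block the WT muscle differences of Pfkm and Ldhb had a limma adjusted p of 0.00132 and 0.00292, and both were still called.

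Alternatives were quantile normalization, normexp background correction, no filter, the authors' table, the mean of a gene's kept probes, a replicate block, a slide block, single-muscle, single-genotype and single-slide fits, and leaving out each array. Every member with a called muscle difference is named, and for the genotype comparisons the 8 members of smallest p; other members named for the muscle comparison complete the list. Of pathway genes that are no members, the rule names those called, up to the 6 of smallest p, and a result among them is not reported here. The members and lists were chosen with earlier results of these data known.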

Additional observations from a re-analysis of the deposited data

Results flagged for a closer look

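Over 64 pairs of a member and a soleus group of 4 arrays, 3 had 1 array far from the others by Dixon's test, and chance flags about 1 in 20 groups. Tpi1 in soleus WT replicate 3 read 7.60, with the nearest array at 7.36. Phka1 in soleus WT replicate 4 read 3.98, with the nearest at 4.52. Pfkfb1 in soleus Ts1Cje replicate 3 read 2.93, with the nearest at 3.25.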

How the results depend on the processing

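Between the muscles, 330 of 345 fits of a called member under an alternative in WT, and 350 of 368 in Ts1Cje, kept the direction and the call, and the other 15 and 18 kept the direction only. No tested genotype difference of a named member changed its call. Members not called as reported were called in 10 fits: Gbe1, Gyg and Pgam1 as lower in the EDL and Hk2 as higher. The WT median of 1.42 log2 units was 0.92 with quantile normalization, 1.22 with normexp and 1.14 with the slide block, and 1.34 to 1.46 with 1 array left out. The Ts1Cje median of 1.53 was 0.98, 1.31 and 1.42 with the same settings and 1.42 within slide 1. The median difference between the genotype effects was 0.03 to 0.14 with 1 array left out. The causes were not tested. Members called numbered 22 to 23 in WT and 22 to 24 in Ts1Cje with 1 array left out. Of all 14164 genes, 3228 to 3822 were called in WT and 2963 to 4166 in Ts1Cje in these fits. With the replicate block, 21 members were higher and 1 lower in each genotype, beside 3559 of all genes called in WT and 4115 in Ts1Cje. Pfkfb3 in Ts1Cje stood at 1.72 with that block (limma adjusted p = 0.0645). Same-numbered Ts1Cje EDL and soleus samples did not deviate together, and whether they share an animal is not known. Apart from Pfkfb3 in Ts1Cje and Pfkfb1 in WT, the block changed no member's call. Over all genes, 4226 calls in WT became 2284 with normexp and 1372 with the slide block, and 4245 in Ts1Cje became 2943, 2081 and, within slide 1, 965. The 35 soleus genotype calls became 7 with the replicate block, 6 without a filter, 4 with soleus arrays alone and 1 within slide 2. Dim members such as Fbp2, Gpd2 and Slc16a1, whose signals lie near or below the 75th percentile, are measured with less signal over background.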
